A study of Mus musculus with 3 samples.

Results

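The 10 genes described here encode Tudor domain proteins of germ cells: Tdrd1, Tdrd3, Tdrd5, Tdrd6, Tdrd7, Tdrd9, Tdrkh, Stk31, Rnf17 and Akap1. They were taken by gene symbol from the array's annotation, which gave 18 probes, out of 41174 array probes and 19532 named genes. All 18 probes were kept, with no filter on low values. RNA from whole gonads of male mouse embryos at E14.5 had been hybridised in a single colour, and the table held 3 columns of values. The control column was Nanos2+/- Stra8+/-, so it was heterozygous for both targeted genes and not wild type. The second column was Nanos2-/- Stra8+/-, which lacks the fetal male germ cell RNA-binding protein NANOS2 and is called the Nanos2 null here. The third was labelled Nanos2-/- Stra8-/- and is called the labelled double null here, because its value for the Stra8 probe does not bear out the Stra8 part of the label. The strain, the design of the alleles, and how many embryos gave each RNA are not given in the sources used here.

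A Tudor domain is a small fold that binds methylated arginine or lysine, and in germ cells many Tudor proteins bind the methylated arginines of PIWI proteins. PIWI proteins carry piRNAs, small RNAs that silence transposons, and in the fetal testis they guide DNA methylation to transposon copies before birth. The Tudor proteins hold PIWI proteins, helicases and RNA together in granules beside mitochondria, and in later spermatids in the chromatoid body. In male mouse fetuses the germ cells stop dividing at about the stage sampled, and the fetal piRNA pathway is active in them. The design allows the question of whether RNA of these genes differs when Nanos2 is lost, with and, by the labels, without Stra8, the retinoic acid-induced factor of meiotic entry.

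The promoter sequences of a few members are shown first, because the members differed in whether their RNA values were lower or higher without Nanos2. Tdrd9, Tdrd1, Stk31 and Tdrd5 had lower values than the control in both mutant columns, and Akap1 is shown beside them as a gene with higher values on all 3 of its probes. RefSeq windows of the mouse build GRCm38.p6 were available for 8 of the 10 members. For each, the 250 bases before the transcription start nearest to the gene's annotated 5′ end were taken. They run 5′ to 3′ on the gene's strand, and capitals mark CACGTG, the palindromic E-box. The Tdrd9 window is chr12:111971309-111971558 on the plus strand, the Tdrd1 window is chr19:56825959-56826208 on the plus strand, and the Stk31 window is chr6:49395289-49395538 on the plus strand. The Tdrd5 window is chr1:156303349-156303598 on the minus strand, and the Akap1 window is chr11:88864587-88864836 on the minus strand.
Tdrd9: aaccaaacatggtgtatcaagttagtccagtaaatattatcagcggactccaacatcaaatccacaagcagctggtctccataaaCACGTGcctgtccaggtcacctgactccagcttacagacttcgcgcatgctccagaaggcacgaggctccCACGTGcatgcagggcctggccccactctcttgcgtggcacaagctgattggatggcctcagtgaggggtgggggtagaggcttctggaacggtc
Tdrd1: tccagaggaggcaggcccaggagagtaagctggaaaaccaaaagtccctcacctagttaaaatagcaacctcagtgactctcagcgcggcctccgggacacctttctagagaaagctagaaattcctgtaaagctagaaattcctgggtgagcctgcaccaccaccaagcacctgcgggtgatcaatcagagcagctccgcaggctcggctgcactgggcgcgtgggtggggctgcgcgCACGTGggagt
Stk31: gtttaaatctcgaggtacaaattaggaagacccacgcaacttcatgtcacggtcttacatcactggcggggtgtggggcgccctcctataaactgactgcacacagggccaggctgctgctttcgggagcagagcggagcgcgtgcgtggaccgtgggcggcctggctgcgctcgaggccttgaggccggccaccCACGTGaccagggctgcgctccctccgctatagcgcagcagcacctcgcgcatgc
Tdrd5: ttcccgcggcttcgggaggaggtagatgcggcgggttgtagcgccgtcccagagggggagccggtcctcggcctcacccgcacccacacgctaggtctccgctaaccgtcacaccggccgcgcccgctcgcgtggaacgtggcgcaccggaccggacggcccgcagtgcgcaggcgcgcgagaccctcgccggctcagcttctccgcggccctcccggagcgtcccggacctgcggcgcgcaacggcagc
Akap1: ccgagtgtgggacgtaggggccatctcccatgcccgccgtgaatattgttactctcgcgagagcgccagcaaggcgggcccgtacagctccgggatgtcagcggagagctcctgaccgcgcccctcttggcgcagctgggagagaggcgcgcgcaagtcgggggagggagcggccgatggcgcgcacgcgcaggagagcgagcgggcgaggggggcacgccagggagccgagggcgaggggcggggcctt

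The E-box CACGTG was found in the windows of Tdrd9, Tdrd1 and Stk31, and not in those of Tdrd5, Akap1, Tdrkh, Tdrd3 or Tdrd7. Tdrd9 held it at 2 places, whose first bases lay 165 and 95 bases before the start, Tdrd1 at 11 bases and Stk31 at 55 bases before it. Of 32851 windows of 250 bases from mouse genes, 6.02% held it. That set can hold several windows for a gene, and held 15 for the 8 members, so its shares are not per gene. The E2F core TCCCGC, searched on both strands, was present in the Tdrd5 and Tdrd3 windows among the 8, and in 16.9% of all windows. The motif CNCCTCAG, known for STRA8 in mouse germ cells and also searched on both strands, was present in the Tdrd7 window alone among the 8, and in 6.42% of all windows. The windows also differed in their number of CG dinucleotides, the sites of DNA methylation, with 8 in that of Tdrd9 and 11 in that of Tdrd1. Stk31 had 21, Akap1 had 31 and Tdrd5 had 40, against a median of 6 over all windows. These matches describe letters in these windows and were not tested as binding sites.

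The array values are deposited ratios, not signal levels. The scale appears relative to a value for each probe, since no array probe exceeded 1 in all 3 columns. That value is not the middle of these 3 columns for every probe, because 7552 probes lay under 0.7 in all 3. How those were scaled is not known. A value can be set against the same probe in another column but never against another probe. With 1 column for each genotype there was no spread between replicates, no test and no p-value, and precision is limited by the number of arrays. The titles tie each column to replicates 1 and 2, which may mean a mean of 2 arrays. A difference of at least 2-fold, or 1.0 on the log2 scale, was counted as a call, and 1.5-fold was counted beside it. The Nanos2 probe itself lay at 87.2 in the control, 0.364 in the Nanos2 null and 0.397 in the labelled double null. The single Stra8 probe, A_51_P276305, lay at 0.108 in the control, 1.13 in the Nanos2 null and 1.34 in the labelled double null, so its value was highest in the column labelled as lacking Stra8. Where this probe lies relative to the deleted part of the gene is not known, and every direction drawn from that column rests on its label. The all-probe median of the log2 difference from control was 0.05 for the Nanos2 null and 0.19 for the labelled double null, so small positive differences in the latter are near the middle of the array. Quantile normalization brought the second median to 0.03. None of the 18 member probes belonged to a class of 7552 array probes under 0.7 in all 3 columns, nor did any of 11 germ cell or 14 Sertoli cell marker probes.

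Of the 10 members, Tdrd9 had the largest downward difference from control in both mutant columns. It encodes a Tudor domain RNA helicase that works with the PIWI protein MIWI2 in the nuclear arm of the fetal piRNA pathway. Its single probe, A_51_P307589, had 2.72 in the control, 0.869 in the Nanos2 null and 0.906 in the labelled double null. Both mutant columns lay well under the control and close to each other. The value was 3.13-fold lower in the Nanos2 null and 3.0-fold lower in the labelled double null, with log2 differences of -1.65 and -1.59. Over all array probes, 1.11% had a log2 difference at or below that of Tdrd9 in the first comparison and 1.32% in the second. If the mutant values lay at background, which is not known, these folds are lower bounds. Because whole gonads were measured, fewer germ cells and less RNA per germ cell cannot be told apart in any of these values.

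Tdrd1 was also lower without Nanos2, by a smaller step and by both of its probes. It encodes a scaffold of the granules between mitochondria that binds the PIWI protein MILI. Probe A_51_P478238 had 1.39 in the control, 0.864 in the Nanos2 null and 1.0 in the labelled double null. Probe A_52_P48218 had 1.22, 0.692 and 0.997 in the same order. On both probes the control was highest and the labelled double null lay between the other columns. The Nanos2 null was 1.61-fold lower by the first probe and 1.77-fold lower by the second, and the labelled double null was 1.39-fold and 1.23-fold lower. Between probes the log2 difference of the first comparison varied by 0.14, the same as the median gap of 0.14 among 5405 genes with 2 probes.

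Tdrd5 differed from the control in the same direction on both probes, at under 1.5-fold. It encodes a Tudor protein needed to assemble germ granules in spermatogenic cells. Probe A_52_P36065 had 1.05 in the control, 0.812 in the Nanos2 null and 0.89 in the labelled double null, and probe A_52_P390091 had 1.17, 0.945 and 0.856. The probes place the mutant columns in opposite orders below the control. The log2 differences in the first comparison were -0.37 and -0.31, and 11.2% and 13.4% of all probes lay at or below them.

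Tdrkh, in contrast, had higher values in both mutant columns, with probes that disagreed in size. Its protein sits on the outer mitochondrial membrane, binds PIWI proteins and takes part in trimming piRNA ends. Probe A_52_P428679 had 0.555 in the control, 1.0 in the Nanos2 null and 1.12 in the labelled double null. Probe A_51_P233515 had 0.889, 1.02 and 1.16. By the first probe the mutant columns were 1.80-fold and 2.02-fold higher, and by the second 1.14-fold and 1.30-fold higher. The gap of 0.66 between the probes in the first comparison exceeds the median gap of 0.14 among genes with 2 probes and lies below their 90th percentile of 0.75, so the size for this gene depends on the probe. The 2.02-fold value passes the 2-fold size narrowly, and with each column centred on its median it no longer did.

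**Figure D1:**
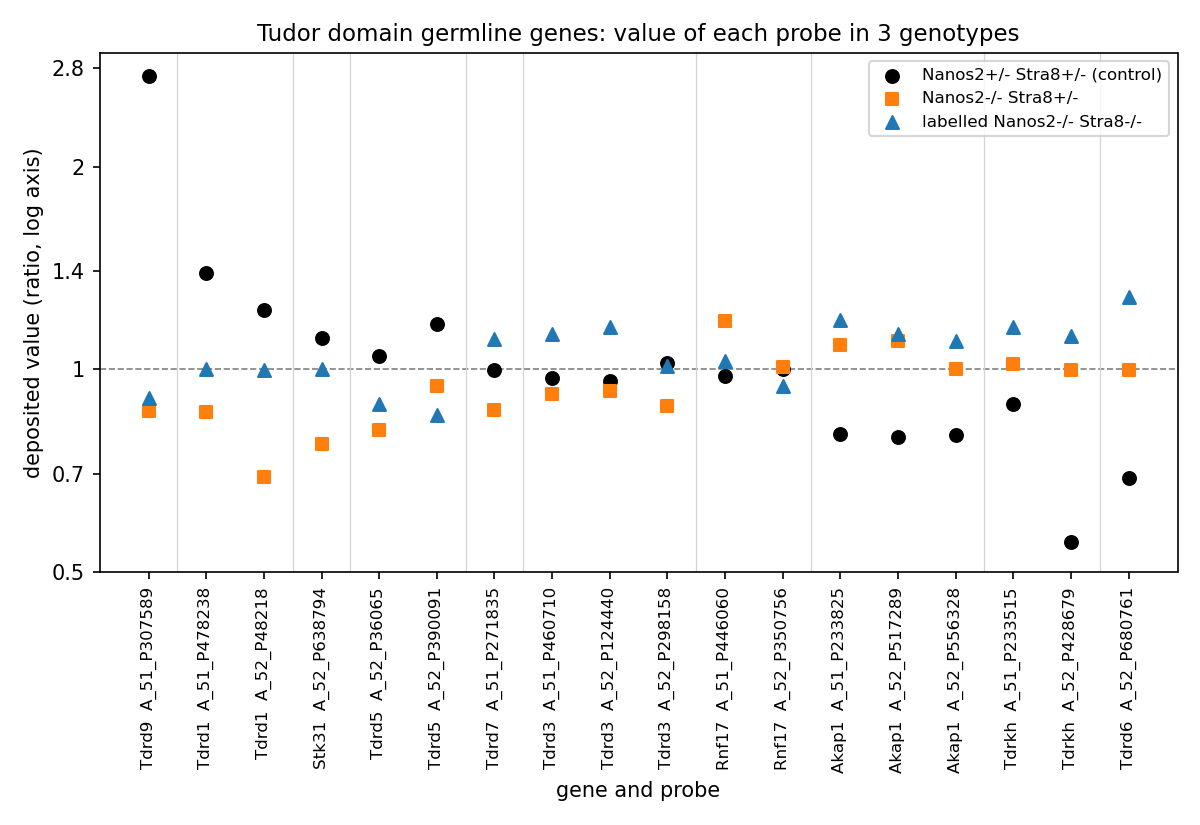
Deposited value of each of the 18 probes (vertical axis, ratio, log axis) by gene and probe (horizontal axis), with 1 marker for each genotype column and a dashed line at 1. The control marker is far above the others for Tdrd9, at 2.72, and below them for all probes of Akap1, Tdrkh and Tdrd6.

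The proteins of the chromatoid body and related granules did not share a direction. Tdrd6, an architectural protein of the chromatoid body in spermatids, had 0.689 in the control, 0.998 in the Nanos2 null and 1.28 in the labelled double null by its single probe, A_52_P680761. It was 1.45-fold and 1.86-fold higher in the mutant columns, and the labelled double null was the highest of the 3. Stk31, a testis protein with a Tudor domain and a kinase-like domain, ran the other way on its probe A_52_P638794. It had 1.11 in the control, 0.776 in the Nanos2 null and 1.0 in the labelled double null, which is 1.43-fold and 1.11-fold lower. As for Tdrd1, the labelled double null lay between the control and the other mutant.

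Tdrd7 and Rnf17 stayed close to the control. Tdrd7, another chromatoid body protein, also needed in the lens, had 0.999, 0.869 and 1.11 in the order control, Nanos2-/- Stra8+/- and labelled double null by its probe A_51_P271835. Its mutant columns lay on either side of the control, with log2 differences of -0.20 and 0.15. Rnf17, also called Tdrd4, joins a RING finger to Tudor domains and restrains piRNA amplification in mouse meiotic cells. Its probe A_51_P446060 had 0.977, 1.18 and 1.03, and its probe A_52_P350756 had 1.0, 1.01 and 0.944. The log2 differences of Rnf17 ran from 0.01 to 0.27 in the first comparison and from -0.08 to 0.07 in the second, and their signs changed with the scaling: centring gave -0.04 for A_52_P350756 in the first comparison and -0.01 for A_51_P446060 in the second.

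Of the members with functions outside the germline, Akap1 had higher values without Nanos2 and Tdrd3 lay close to the control. Akap1 anchors protein kinase A to mitochondria in many tissues and carries a KH and a Tudor domain. Its 3 probes had control values from 0.793 to 0.803, values from 1.0 to 1.10 in the Nanos2 null, and from 1.10 to 1.18 in the labelled double null. On each probe the control was the lowest. The log2 differences were 0.32, 0.44 and 0.47 in the first comparison and 0.46, 0.51 and 0.56 in the second, a mean of 1.33-fold and 1.42-fold. The gap between its probes, 0.15 and 0.10, was below the median gap of 0.28 and 0.61 among 2077 genes with 3 probes.

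Tdrd3 reads methylated arginines on histones and on RNA polymerase II and works with the topoisomerase TOP3B. Its 3 probes had values from 0.962 to 1.02 in the control, from 0.882 to 0.929 in the Nanos2 null and from 1.01 to 1.15 in the labelled double null. All 3 were slightly lower in the first comparison, with log2 differences from -0.21 to -0.05. In the second they ran from -0.01 to 0.26, around the all-probe median of 0.19.

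Counted together, few of the 18 member probes passed the 2-fold or 1.5-fold size, and the share of all array probes stands beside each count. In the Nanos2 null 1 of 18 probes was at least 2-fold lower than control, that of Tdrd9, where 3.09% of all array probes were, and 0 were at least 2-fold higher, where 2.51% were. At 1.5-fold, 3 probes were lower, those of Tdrd9 and Tdrd1, against 6.81% of all probes, and 1 was higher, for Tdrkh, against 6.31%. In the labelled double null 1 probe was at least 2-fold lower (all probes 4.39%) and 1 at least 2-fold higher (4.59%), for Tdrd9 and Tdrkh. At 1.5-fold, 1 was lower (9.97%) and 2 were higher (12.8%), for Tdrkh and Tdrd6. With 18 probes these counts of up to 3 are too small to set the family apart from the array. The comparisons share the control column, so they are not independent of each other.

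The median log2 difference over the 18 probes was -0.07 in the Nanos2 null against 0.05 over all probes, and 0.11 in the labelled double null against 0.19. These medians near 0 hide members on both sides. The control had the highest of the 3 values for 7 probes, which belong to Tdrd9, Tdrd1, Stk31, Tdrd5 and Tdrd3, and this order held for 24.0% of all probes. It had the lowest value for 7, which belong to Akap1, Tdrkh, Tdrd6 and Rnf17, an order that held for 51.0% of all probes. With the columns centred on their medians the counts were 8 and 6, against 31.4% and 38.9% of all probes.

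**Figure D2:**
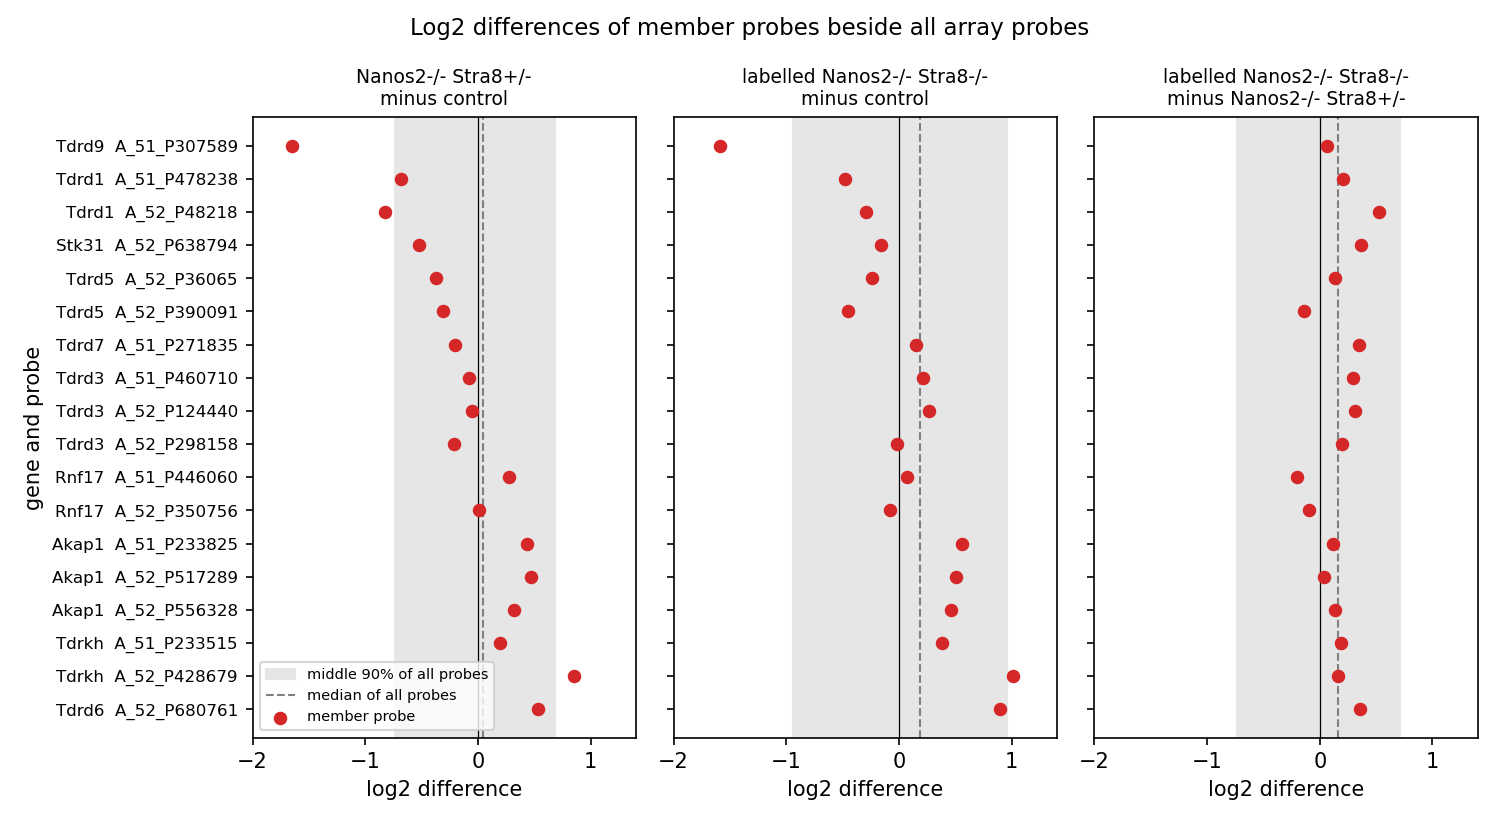
Log2 difference (horizontal axis) of each member probe (vertical axis, gene and probe) for the 3 comparisons, with the middle 90% of all array probes in grey, their median as a dashed line and 0 as a solid line. Tdrd9 lies outside the grey range on the low side in the first and second panels, a Tdrkh probe on the high side, the second Tdrd1 probe on the low side in the first panel, and no member in the third.

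By mean log2 difference over their probes in the Nanos2 null, the members ran from Tdrd9 (-1.65) through Tdrd1 (-0.75), Stk31 (-0.52), Tdrd5 (-0.34), Tdrd7 (-0.20), Tdrd3 (-0.11), Rnf17 (0.14), Akap1 (0.41) and Tdrkh (0.52) to Tdrd6 (0.53). The step from Tdrd9 to Tdrd1 was the widest, at more than the 0.14 between the Tdrd1 probes. Stk31, Tdrd5, Tdrd7 and Tdrd3 followed each other by steps of the size seen between probes of 1 gene. Akap1, Tdrkh and Tdrd6 cannot be ordered, since the 2 Tdrkh probes span both of the other genes.

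The labelled double null was compared with the Nanos2 null, a contrast that by the labels is the further loss of Stra8. The Stra8 probe was 1.18-fold higher in the labelled double null, so these values show no loss of Stra8 RNA, and the contrast may hold none. No member was called in either direction at 2-fold, where 2.78% of all probes were lower and 2.44% higher, or at 1.5-fold, where 7.17% were lower and 7.23% higher. The member median of 0.18 lay beside the all-probe median of 0.16. The largest difference was that of the Tdrd1 probe A_52_P48218, at 0.53, while the other Tdrd1 probe had 0.21. Stk31, Tdrd6 and Tdrd7 had 0.37, 0.36 and 0.35, and Tdrd9 had 0.06. Rnf17 lay lowest, at -0.20 and -0.09. This comparison uses the Nanos2 null with the opposite sign to the first, so a low value of Tdrd1 or Stk31 in that column alone gives a difference in both.

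Partner genes of the piRNA pathway were set beside the members. The list held 19 genes, of which 18 had 26 probes. It was chosen with earlier results of these data known, so its counts and medians are not an independent comparison with the array. In the Nanos2 null 5 of the 26 probes, 2 of them for Gtsf1, were at least 2-fold lower (all probes 3.09%) and 0 higher (2.51%). At 1.5-fold, 10 were lower (6.81%) and 3 higher (6.31%). Below 0 lay 18 of the 26, and 16198 of the 41174 array probes. The list median was -0.42, against 0.05 over all probes. In the labelled double null 4 were at least 2-fold lower (all probes 4.39%) and 0 higher (4.59%), with a median of -0.22 against 0.19. Dnmt3l, the cofactor of germline DNA methylation, was 6.24-fold and 7.70-fold lower in the Nanos2 null and the labelled double null, and the PIWI gene Piwil1 was 3.85-fold and 4.38-fold lower. Gtsf1, a small zinc finger protein of PIWI complexes, was 2.52-fold and 2.48-fold lower by the mean of 2 probes. Henmt1, which methylates piRNA ends, was 2.10-fold lower in the first comparison, and Tex15, a partner of MILI, 1.95-fold lower in the second. These partners were named for having the largest mean differences of the list. Tdrd9, at 3.13-fold and 3.0-fold lower, lay between Piwil1 and Gtsf1 in both comparisons and well short of Dnmt3l. Against the whole list in the Nanos2 null, with its median of -0.42, Tdrd1 had a lower mean, -0.75. Tdrd5 had a mean of -0.34, nearer to that median.

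Tdrd12, a further Tudor gene of the pathway that was named after its values were seen, had the direction of Tdrkh. Its log2 differences were 0.74 and 0.57 by its 2 probes in the Nanos2 null, and 0.87 and 0.68 in the labelled double null. In the third comparison the partner list had a median of 0.02, with no probe at 2-fold in either direction (all probes 2.78% lower and 2.44% higher). By the mean over a gene's probes, its largest differences there were 0.50 for Henmt1, 0.47 for Pld6, a mitochondrial nuclease of piRNA production, 0.46 for the helicase gene Ddx4 and 0.38 for Exd1, a piRNA biogenesis partner of TDRD12. Single probes went further in both directions for the PIWI gene Piwil2, whose 2 probes disagreed, at -0.89 and 0.55.

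Tudor domain genes of general function held no 2-fold difference from control in either mutant column. Over all probes, 3.09% were lower and 2.51% higher by that size in the Nanos2 null, and 4.39% and 4.59% in the labelled double null. At 1.5-fold the list had 0 probes lower and 2 higher in the Nanos2 null (all probes 6.81% and 6.31%). In the labelled double null it had 2 lower and 5 higher (9.97% and 12.8%). These counts are too small to set the list apart from the array. The 17 genes had 33 probes, whose median was 0.11 in the Nanos2 null, within a range from -0.22 to 0.65. In the labelled double null the median was 0.09 and the range ran from -0.77 to 0.98. Their largest mean differences in the first comparison were 0.50 for the histone demethylase gene Kdm4c, 0.35 for Smn1, whose protein assembles spliceosomal particles, 0.32 for the methyltransferase gene Setdb2 and 0.31 for the Polycomb gene Mtf2. In the second they were 0.66 for the lamin B receptor gene Lbr, 0.58 for Uhrf1, which maintains DNA methylation, -0.53 for Kdm4a, another demethylase gene, and 0.52 for Setdb2. The third comparison again gave 0 probes at 2-fold (all probes 2.78% lower and 2.44% higher), with a median of 0.09.

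Genes whose proteins work with TDRD3 or AKAP1 were close to the array as a whole. The 6 genes had 13 probes. In the Nanos2 null their median was 0.05, with 0 probes at 2-fold (all probes 3.09% lower and 2.51% higher). In the labelled double null it was 0.11, with 1 probe at least 2-fold lower (all probes 4.39%). That probe belonged to Fmr1, the fragile X gene, whose probes disagreed, with log2 differences of -1.13 and 0.32. Top3b, the TDRD3 partner, had -0.24 and -0.13, and Prkar2a, a regulatory subunit of protein kinase A, had a mean of 0.19 in the first comparison.

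**Figure D3:**
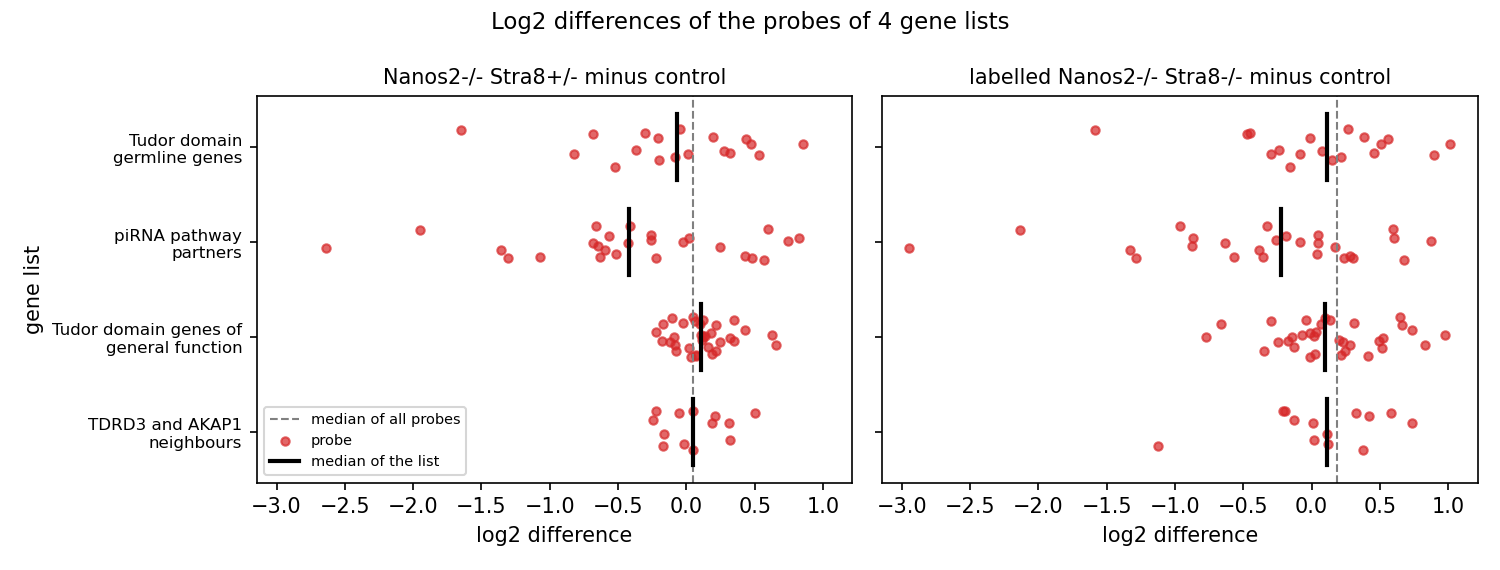
Log2 difference from control (horizontal axis) of each probe of 4 gene lists (vertical axis, with points spread vertically for sight), for the Nanos2 null on the left and the labelled double null on the right. Black bars are list medians and the dashed line is the all-probe median. The lists were chosen with earlier results of these data known. The piRNA pathway partners reach furthest down, with a median of -0.42 on the left, while the Tudor genes of general function lie between -0.22 and 0.65 there.

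Germ cell markers were not lower as a list. Their 11 probes had a median of 0.26 in the Nanos2 null and 0.28 in the labelled double null, against 0.05 and 0.19 over all probes. In each, 8 lay above 0 and 3 below. Of the 41174 array probes, 24976 lay above 0 in the first comparison and 27295 in the second, so most of the array did too. In the first comparison the marker probes ranged from -0.89 to 0.82, with 2 at least 1.5-fold lower (all probes 6.81%) and 2 higher (6.31%). Ddx4, Mael and Nanos3, at -0.22, -0.63 and 0.82 there, also stand in the piRNA partner list, so the lists overlap. Sertoli cell markers had medians of 0.04 and 0.17 over 14 probes, fetal Leydig cell markers -0.07 and -0.04 over 7, endothelial markers 0.08 and 0.22 over 9, macrophage markers 0.15 and 0.09 over 9, and red cell markers 0.33 and 0.30 over 5. Mesonephric epithelium markers had 4 of 9 probes at least 2-fold higher in the first comparison and 3 in the second, with medians of 0.22 and 0.36. Over all probes, 2.51% and 4.59% were at least 2-fold higher. The part of cell composition in the members' values was not tested.

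The genes with the pattern most like Tdrd1 and Tdrd9 were found by the distance between mean log2 differences from control in the 2 mutant columns, over 3 columns in all. Candidates were the other genes with 2 or more probes, 8510 for Tdrd1 and 8511 for Tdrd9. Among so many genes a close match on 2 values is easily found, so a small distance says little by itself. For Tdrd1 they were Chrng, St8sia5 and Ankef1, at distances of 0.01, 0.02 and 0.03. Of these, St8sia5, a sialyltransferase gene, had probes that agreed closely, from -0.76 to -0.72 in the first comparison. Those of Chrng, a muscle acetylcholine receptor subunit gene, ran from -1.25 to -0.28 there, and those of Ankef1 from -1.14 to -0.02. For Tdrd9 they were Prom2, Mak and Cyp2c40, at 0.08, 0.12 and 0.14. Mak, a kinase gene of male germ cells and cilia, had -2.19 and -1.33 by its 2 probes in the first comparison, and Prom2 rested on probes that disagreed, at -4.02 and 0.66.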

How the data were processed

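Cy3-labelled cRNA from total RNA was hybridised to Agilent arrays, per the labels' protocols, and scanned signals were extracted with Agilent Feature Extraction in version 9.5, a tool named in the submitters' processing notes. The authors deposited linear ratios, with 1 column for each of 3 genotypes. The normalization and the combining of arrays are not given in the sources used here. In none of the 41174 array probes did all 3 columns exceed 1, so the scale appears relative to a value per probe. The table's 41267 entries include 93 control spots, which were not used. The platform annotation named 32664 probes with 1 gene symbol. The 45 probes with several symbols and 8465 it did not list stayed unnamed. The symbols of all 18 member probes equalled those of RefSeq by gene identifier.

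Log2 differences between columns were computed per probe, with no pseudocount, using pandas 2.3.3 and numpy 2.4.6 under Python 3.11.15. Counts and medians were taken over the member probes and over all array probes. The counting step was run on noise-free copies of the control column with 200 probes altered past the 2-fold size, which checks the code and not the data. Alternatives were centring, quantile normalization, 2 floors, leaving out probes under 0.7 in all 3 columns, 2 rules for probes per gene and a 1.5-fold size. Every probe of the 10 members was named, with up to 4 genes of each comparison list by absolute mean difference, and the 3 most alike genes for Tdrd1 and for Tdrd9. Members, lists, motifs and tests were chosen with earlier results of these data known.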

Additional observations from a re-analysis of the deposited data

How the results depend on the processing

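The 2-fold call of Tdrd9 was made in both comparisons with control under all 7 alternatives, but not all of them could change it. With a single probe, the rules for probes per gene left its value as it was. So did leaving out probes under 0.7 and the floor at the negative control, which lay below its values. The 0.7 cut and both floors apply common limits to ratios of different probes, so they do not show which probes have signal above background. Quantile normalization brought the log2 differences of Tdrd9 to -1.31 and -1.17. No called member changed sign under centring or quantile normalization. The single probe at least 2-fold higher in the labelled double null, for Tdrkh, fell to 0 probes with median centring, quantile normalization, a floor at the column median, the mean of a gene's probes, and the probe with the highest mean. At 1.5-fold in place of 2-fold, the Nanos2 null had 3 probes lower (all probes 6.81%) and 1 higher (6.31%). The labelled double null had 1 lower (9.97%) and 2 higher (12.8%). The member median in the first comparison, -0.07 as deposited, was -0.12 with median centring, -0.15 with quantile normalization, 0.0072 with a floor at the column median, -0.16 with the mean of a gene's probes and -0.13 with the probe of highest mean. In the second it was 0.11 as deposited, and 0.024 with median centring, -0.0023 with quantile normalization and 0.073 with the mean of a gene's probes. In the third it was 0.18 as deposited, and 0.14 with median centring, 0.045 with a floor at the column median, 0.22 with the mean of a gene's probes and 0.20 with the probe of highest mean. Floors and probe rules act through the values they replace, and the cause of the other shifts was not tested. The sign of 1 Rnf17 probe changed with centring in each comparison with control, and those of 2 Akap1 probes changed with quantile normalization in the third, to -0.10 and -0.18. No paired analysis was possible because each genotype has 1 column, and no replicate could be left out. Which values lie above background is not known, and this limits every fold given for the members, those of Tdrd9 included.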
